A study of Mus musculus with 7 samples.

Results

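Isolated FRA2 binding events are those with empty surroundings. An event, a single base position on mouse build mm9 where reads of an antibody pile up, was counted as isolated when no other FRA2 event lay within 50000 bp on either side, and no JUND or SOX2 event lay within 50000 bp other than at the event itself. JUND or SOX2 events up to 100 bp away were taken as partners at the same site and were allowed. Of 64579 FRA2 events, 2492 (3.86%) were isolated. The rule used positions only. Reads played no part in it beyond their part in the listing of events.

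The events were mapped by chromatin immunoprecipitation and sequencing (ChIP-seq) in 2 striatal cell lines made from mouse embryos at day 14, of mixed 129SvEv/CD1 strain. STHdhQ7 (Q7), of genotype HdhQ7/Q7, carries short glutamine tracts in both copies of huntingtin. STHdhQ111 (Q111), of genotype HdhQ111/Q111, carries expanded tracts of the kind found in Huntington's disease. Both lines had fewer than 15 passages, were grown at 33 °C and were shifted to 39 °C for the last 2 days. FRA2, JUND and a control IgG were measured in both lines and SOX2 in Q7, each as 1 library pooled from replicates 1 and 2, so no spread between replicates could be computed. Each genotype is 1 cell line, so line and genotype cannot be told apart, and every difference below is between pooled libraries.

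FRA2 and JUND are subunits of AP-1, a dimeric transcription factor that binds DNA as a pair of Fos-family and Jun-family proteins. FRA2 is a Fos-family protein and needs a Jun partner such as JUND to bind. AP-1 is known for acting mostly at enhancers away from gene starts, where sites are often grouped. SOX2 is a transcription factor of neural progenitors.

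The tables held 46583 JUND and 26433 SOX2 events beside those of FRA2. Depth is known as reads within listed events. For FRA2 these numbered 3340554 in Q7 and 3498922 in Q111. For JUND they were 1660158 in Q7 and 1609483 in Q111, and for SOX2 1193914. Isolated events held 2.33% of the FRA2 reads in Q7 (77678 reads) and 3.06% of those in Q111 (107071 reads).

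Isolated events sat at a median of 82006 bp from the nearest event outside the site. The nearest was another FRA2 event for 1628 members, a JUND event for 542 and a SOX2 event for 322. Distances exceeded 100000 bp at 933 members, 200000 bp at 337 and 1000000 bp at 25. For the other 62087 FRA2 events the median distance was 2460 bp. Only 11 members were the first or last FRA2 event of their chromosome, where a side may be empty because the chromosome ends.

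The 3 events just inside the limit are given with their FRA2 reads, Q7 first: chromosome 10 position 6773311 (nearest event 50013 bp away, 17 and 74 reads), chromosome 1 position 167466638 (50032 bp, 18 and 130) and chromosome 14 position 14896094 (50032 bp, 11 and 26). Just outside it were chromosome 7 position 52467540 (49987 bp, 59 and 33), chromosome 4 position 54824243 (49928 bp, 147 and 37) and chromosome 18 position 9660948 (49907 bp, 8 and 25).

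Isolated events were mostly weak in Q7 and less so in Q111. FRA2 reads per member ran from 0 over a median of 22 to 454 in Q7, and from 0 over a median of 29 to 545 in Q111. The other FRA2 events had medians of 31 reads in Q7 and 33 in Q111, so the difference in level was larger in Q7. The larger of both libraries was never below 20.1 reads, and every member was marked present in at least 1 line. Median control reads were 3.6 in Q7 and 3.1 in Q111 for members, and 3.6 and 5.2 for other events. The ratio of IP to control thus depends on a control that was lower at members in Q111. The median of this ratio in the authors' deposited table was 6.1 in Q7 and 11.3 in Q111 for members, and 9.1 and 8.1 for other events. The authors' marks of presence were also more often in Q111. Both lines were marked at 760 members (30.5%, Wilson interval 28.7 to 32.3%), Q7 alone at 572 (23.0%, 21.3 to 24.6%) and Q111 alone at 1160 (46.5%, 44.6 to 48.5%). Over all other FRA2 events these shares were 48.3%, 26.9% and 24.9%.

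FRA2 reads were compared between the lines at each event by a two-sided exact binomial test. It was computed over the whole FRA2 table and adjusted by the Benjamini-Hochberg method. Calls required an adjusted p below 0.05 together with a scaled difference of 2-fold or more. FRA2 was higher in Q111 at 1055 isolated events (42.3%, 40.4 to 44.3%), where 23.3% of all FRA2 events were called in this direction. It was higher in Q7 at 458 (18.4%, 16.9 to 19.9%), against 21.3% of all FRA2 events. The remaining 979 members were not called. Among called members 69.7% were higher in Q111, and among called events outside the set 51.3%. The median log2 fold (Q111 over Q7) was 0.71 at isolated events, with quartiles of -0.57 and 1.87, and -0.02 at the others, with quartiles of -0.89 and 0.92.

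For members called higher in Q111 the median was 36 reads there and 8 in Q7. For those called higher in Q7 it was 37 there and 9 in Q111. With the limit at 4-fold, 546 members were called towards Q111 and 213 towards Q7, where 9.76% and 7.99% of all FRA2 events were. FRA2 rounded to 0 reads in Q7 at 8 members and in Q111 at 3.

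**Figure D1:**
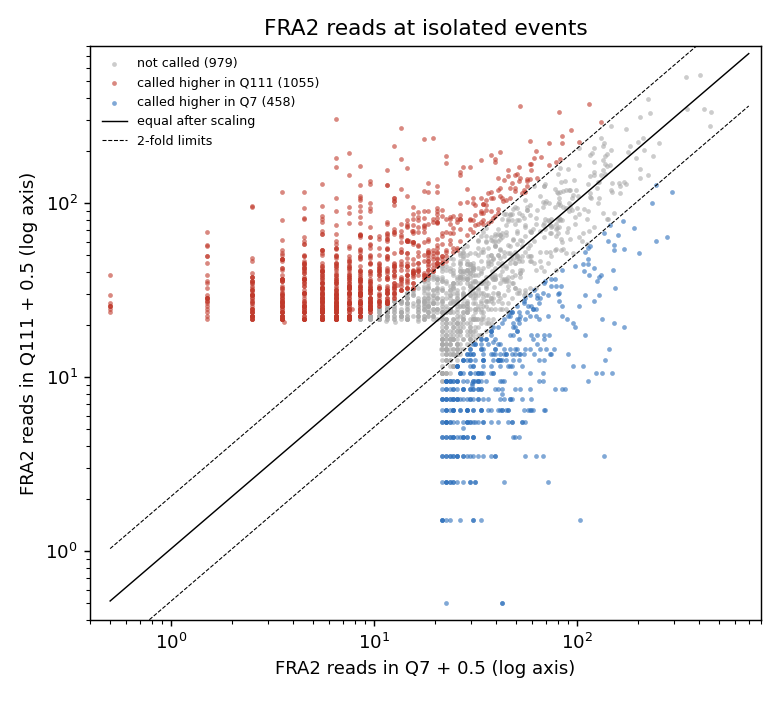
FRA2 reads in Q7 (horizontal) and Q111 (vertical) at the 2492 isolated events, both on log axes with 0.5 reads added, coloured by call. Called events higher in Q111 (1055, red) outnumber those higher in Q7 (458, blue), and the empty lower left corner is where neither line reached the listing limit.

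These proportions depended on the scaling and on which neighbours counted. With libraries scaled by control reads, 806 members were higher in Q111 and 584 in Q7, so 58.0% of calls were towards Q111 and the median log2 fold was 0.34. That scaling moved the median of all FRA2 events to -0.36, with 16.4% of them called higher in Q111 and 30.5% in Q7. When isolation was set by FRA2 events alone, 3251 events qualified and 65.4% of calls were towards Q111. When neighbours counted only if marked present in Q111, 5141 events qualified. Of these 1370 were higher in Q111 and 1677 in Q7, with a median log2 fold of -0.18. When neighbours counted only if marked present in Q7, without SOX2, 6153 events qualified, of which 3251 were higher in Q111 and 765 in Q7. Each of these settings admits events whose surroundings hold events of the line not counted. SOX2 was mapped in Q7 only, and of all JUND events 38.4% were marked present in Q7 alone and 24.4% in Q111 alone. The 760 members marked present in both lines had a median log2 fold of 0.17, with 17.1% higher in Q111 and 10.5% in Q7. The corresponding 29971 other events had a median of -0.003 with 10.6% and 10.4%.

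Of the 10 isolated events whose fold intervals lay farthest from 1 towards Q111, 9 had a JUND partner, also called higher in Q111. None had a SOX2 event of Q7 within 100 bp, and SOX2 in Q111 was not analysed here. Over all 1055 members higher in Q111, JUND was at 32.9% and SOX2 at 0.948%, so these 10 are not typical for JUND. At chromosome 15 position 77409416, with no other event for 162727 bp, FRA2 reads numbered 6 in Q7 and 305 in Q111, 45.5-fold more (95% Clopper-Pearson interval 22.4 to 135.2, exact binomial test, adjusted p = 1.54e-76). JUND reads, 9 bp away, numbered 4 and 135. Both subunits were thus low in Q7 and high in Q111, where the control at the FRA2 position had 1.2 and 3.1 reads.

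Next came chromosome 8 position 34019425, where 6 reads of FRA2 in Q7 faced 181 in Q111 (27.0-fold, 13.2 to 80.7) and JUND had 4 and 72. The event at chromosome 3 position 120351464 held 7 FRA2 reads in Q7 and 194 in Q111, and its JUND partner 3 and 46. At chromosome 6 position 106826826, 13 FRA2 reads in Q7 stood against 271 in Q111, a 19.5-fold difference (11.6 to 38.4), with 9 and 95 for JUND. All of these had more FRA2 reads in Q111 than the median isolated event, and fewer in Q7. The other 5 with JUND lay on chromosome 5 position 21664254 (2 and 96 FRA2 reads), chromosome 16 position 74389446 (3 and 116), chromosome 7 position 79161464 (2 and 95), chromosome 10 position 46512067 (6 and 161) and chromosome 11 position 58231996 (1 and 68). The only site of the 10 without a listed JUND event was chromosome 10 position 6567901, where FRA2 had 4 and 115 reads.

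Towards Q7 the picture of partners was different. SOX2 was present within 100 bp at 8 of the 10 members with the farthest intervals, and JUND at 7, each called higher in Q7. Over all 458 members higher in Q7 the shares were lower, with SOX2 at 25.1% and JUND at 38.0%. Chromosome 5 position 135747739 held 103 reads of FRA2 in Q7 against 1 in Q111, for a ratio of 71.2 (18.7 to 4241; adjusted p = 2.39e-28 by the exact binomial test). JUND, 3 bp away, had 59.9 and 4 reads, and SOX2, 8 bp away, had 78 in Q7. Chromosome 5 position 101135947 held 135 reads of FRA2 in Q7 against 3 in Q111, 80 against 2 of JUND, and 132 of SOX2. All 3 proteins thus shared these sites in Q7, and both AP-1 subunits were at 4 reads or fewer in Q111.

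In Q111 no FRA2 read was found at chromosome 1 position 73281995 or at chromosome 12 position 95470579, and Q7 had 42 at each. Against a floor of 3 reads per library the ratio of Q7 to Q111 was 14.5 at both. The Clopper-Pearson interval of the fold reached down to 11.2 at both and had no upper limit. Both sites had SOX2 but no JUND. At chromosome 7 position 47197940 there were 71 FRA2 reads in Q7 and 2 in Q111, with 55 SOX2 reads. The event at chromosome 4 position 90599158 had 148 and 10 FRA2 reads, a 14.6-fold difference (8.08 to 32.5), with 60 SOX2 reads. SOX2 partners were also found at chromosome 11 position 71395595 (67 and 3 FRA2 reads) and chromosome 7 position 71953924 (62 and 3). The pair of sites without SOX2 was chromosome 10 position 9829862, where FRA2 had 132 and 10 reads, and chromosome 9 position 42680026, with 123 and 10.

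Most isolated FRA2 events had no listed partner. No JUND or SOX2 event lay within 100 bp of 1521 members (61.0%, 59.1 to 62.9%), against 40.9% of the other FRA2 events. JUND was at 919 members (36.9%, 35.0 to 38.8%; others 56.0%), SOX2 at 255 (10.2%, 9.10 to 11.5%; others 24.2%), and both at 203. Members have no SOX2 event between 100 and 50000 bp, which is not asked of the others. The presence of a listed JUND event moved with FRA2 reads. Members with no partner had a median of 40 FRA2 reads over both lines. Listed JUND events held fewer reads in sum than listed FRA2 events, and the sizes of the whole libraries are not known here. JUND too weak to be listed cannot be told from absence. Of 4 groups of FRA2 events ranked by reads over both lines, members in the lowest had JUND in 10.4% of cases and members in the highest in 96.2%, against 20.1% and 96.8% of other events. SOX2 in the highest group was at 27.9% of members and 46.3% of others. Where SOX2 was a partner it was of ordinary strength, with 21 to 157 reads and a median of 31 in Q7, against a median of 36.1 at partners of other FRA2 events.

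The direction of the FRA2 difference separated by listed partner, with SOX2 listed from Q7 only. Among the 1521 members with no listed partner, 46.5% were higher in Q111 and 16.4% in Q7, with a median log2 fold of 0.98. The 716 members with JUND and no SOX2 were similar, with 47.2% and 13.0% and a median of 0.85. With JUND and SOX2, 4.43% of 203 members were higher in Q111 and 39.9% in Q7, with a median of -0.72. With SOX2 and no JUND, 1 of 52 members was higher in Q111 and 34 were higher in Q7, with a median of -1.77. Of the members higher in Q111, 10 of 1055 (0.948%) had SOX2, and of those higher in Q7, 115 of 458 (25.1%). Over other FRA2 events these shares were larger, 527 of 13988 (3.77%) and 5112 of 13299 (38.4%). Among the other FRA2 events, medians were 0.22 with no partner, 0.24 with JUND only, -0.47 with both and -1.15 with SOX2 only, so both classes without SOX2 were above 0 and both with it below, as among members. The shares of other events higher in Q111 and in Q7 were 28.2% and 19.4%, 29.0% and 15.1%, 3.68% and 31.5%, and 2.34% and 51.3% in the same sequence. Because SOX2 was mapped in Q7 only, a SOX2 partner could be listed only where SOX2 was bound in Q7. It was at 4 of 1160 members marked present in Q111 alone and at 101 of 572 marked in Q7 alone. The direction of the classes is thus not independent of the line in which SOX2 was mapped. Sites that SOX2 might hold in Q111 alone are in no class.

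**Figure D2:**
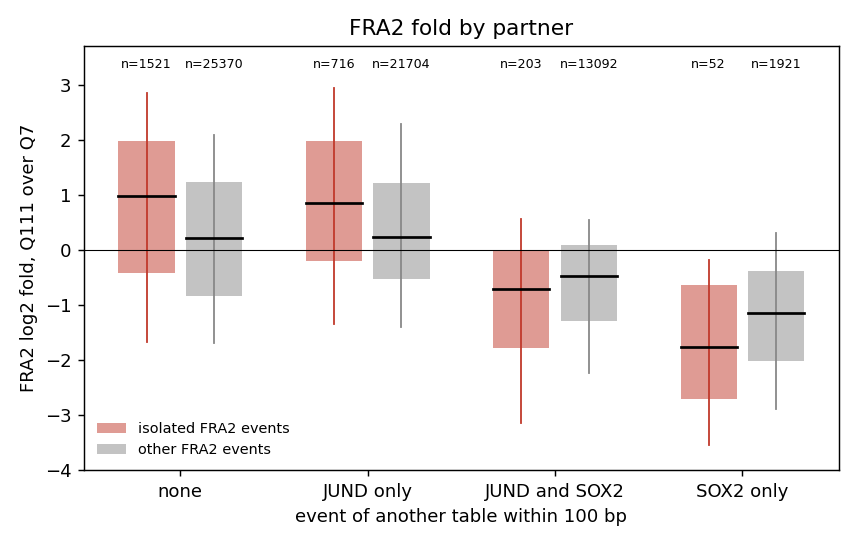
FRA2 log2 fold (Q111 over Q7) by the event of another table within 100 bp, for isolated (red) and other FRA2 events (grey). Boxes span the quartiles, black lines are medians and thin lines run from the 10th to the 90th percentile, which describe events and are not errors. Medians are above 0 without SOX2 and below 0 with it in both sets, and SOX2 was mapped in Q7 only.

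Other FRA2 events without SOX2 in the wider region were set beside the isolated ones. Other FRA2 events with no SOX2 event within 50000 bp numbered 10465, and sat a median of 7881 bp from their nearest event. Of these 46.5% were higher in Q111 and 11.2% in Q7, with a median log2 fold of 0.92. Isolated events without a SOX2 partner numbered 2237, with 46.7% (44.7 to 48.8%) higher in Q111, 15.3% (13.9 to 16.9%) higher in Q7 and a median of 0.97. Both sets were chosen by the lack of SOX2 events, which were mapped in Q7 only. How far that choice favours calls towards Q111 was not tested.

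The comparison was repeated at similar read numbers. In the lowest of the 4 read groups 52.2% of isolated events were higher in Q111 and 21.2% in Q7, against 29.9% and 31.6% of other events. In the highest group the values were 31.4% and 13.4%, against 15.3% and 14.4%. The share towards Q111 was thus larger at isolated events in weak and in strong sites. Against other events without SOX2 within 50000 bp the share was 54.1% at isolated events without SOX2 and 54.5% at the others in the lowest group, and 41.5% and 41.3% in the highest. These sets, too, were chosen by SOX2 events of Q7 only.

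Across all FRA2 events the difference moved with the distance to the nearest other event. Events with a neighbour within 1000 bp had a median log2 fold of -0.19, with 16.4% higher in Q111. The median was 0.33 at distances from 20000 to 50000 bp, just short of isolation, with 33.2% higher in Q111. Among isolated events it was 0.53 up to 100000 bp (1559 events), 1.03 from 100000 to 200000 bp (596 events) and 0.98 beyond (337 events). The shares higher in Q111 were 38.7%, 48.7% and 48.1%. The share higher in Q7 stayed between 15.9% and 23.7% over all distance classes. Without events that have SOX2 within 100 bp, the median went from -0.01 at the shortest to 1.24 at the longest distances. The distance itself counts SOX2 events of Q7, so classes at longer distances lack SOX2 over a wider region. Other FRA2 events with no SOX2 within 50000 bp had a median of 0.92 at a median distance of 7881 bp. Reads and control signal moved along: median FRA2 reads over both lines went from 72 to 46, mean control reads in Q7 from 4.22 to 3.53 and in Q111 from 6.11 to 2.91. The parts of SOX2 in the surroundings, reads and control in the difference were not tested. With control reads subtracted in each line, 70.5% of calls at isolated events were towards Q111 and the median log2 fold was 0.84, while 26.4% of all FRA2 events were higher in Q111 and 24.5% in Q7.

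**Figure D3:**
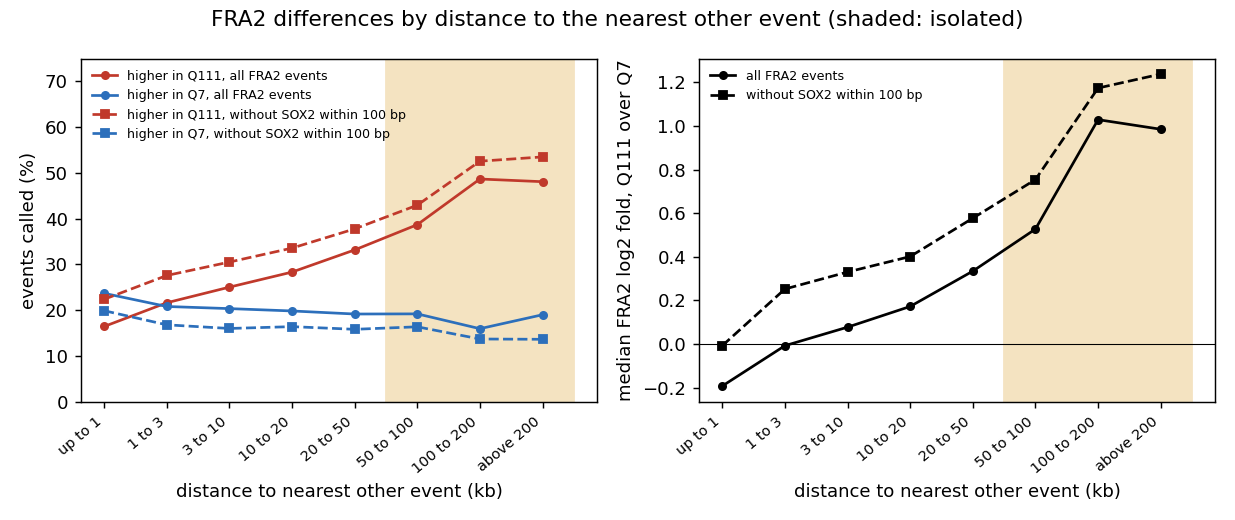
Left, share of FRA2 events called higher in Q111 (red) or Q7 (blue), and right, median log2 fold, by distance to the nearest event outside the site in kb. Solid lines are all FRA2 events and dashed lines those without SOX2 within 100 bp, and shading marks isolated events. The distance counts SOX2 events of Q7, so classes at longer distances lack SOX2 over a wider region. The red line rises from 16.4% to 48.1% while the blue line stays between 15.9% and 23.7%.

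JUND was then compared between the lines at the partners of isolated events. The rule used positions of JUND events, and 397 of the 919 partners were marked present in Q111 alone, 272 in Q7 alone and 250 in both. The JUND event lay a median of 12 bp from the FRA2 position and within 20 bp at 654 of 919 members. JUND reads ran from 0 over a median of 23 to 181 in Q7 and from 0 over a median of 27 to 213 in Q111. By the same test over the whole JUND table, JUND was higher in Q111 at 313 partners (34.1%, 31.1 to 37.2%), where 17.4% of all JUND events were called. It was higher in Q7 at 186 (20.2%, 17.8 to 23.0%), against 23.3% of all JUND events. Partners had a median log2 fold of 0.39, and the JUND table as a whole -0.13. Partners without SOX2 had a median of 0.80, with 302 of 716 higher in Q111. Those with SOX2 had -0.75, and of these 203 partners 11 were called towards Q111 and 85 towards Q7. Among the 250 partners marked present in both lines 17 were higher in Q111 and 14 in Q7, with a median of 0.12, against 5.47% and 8.43% of all JUND events so marked and a median of 0.00.

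FRA2 and JUND moved together at these sites, as at FRA2 events in general. Both were called at 428 members, in the same direction at each: 284 higher in Q111 and 144 higher in Q7. FRA2 alone was called at 93 and JUND alone at 71. Across the 919 sites the log2 folds correlated (Pearson's r 0.90, Spearman's rho 0.92). The sites are not replicates and come from 4 libraries that may share controls. At the 34796 other FRA2 events with JUND, both were called at 11121, in the same direction at 11117 (5068 higher in Q111 and 6049 in Q7), with r 0.89 and rho 0.89. Scaling by control reads turned the JUND balance round, with 182 partners higher in Q111 and 303 higher in Q7 (37.5% of calls towards Q111, against 62.7%) and a median log2 fold of -0.27. The same scaling put the median of all JUND events at -0.80, with 8.66% of them higher in Q111 and 43% in Q7.

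**Figure D4:**
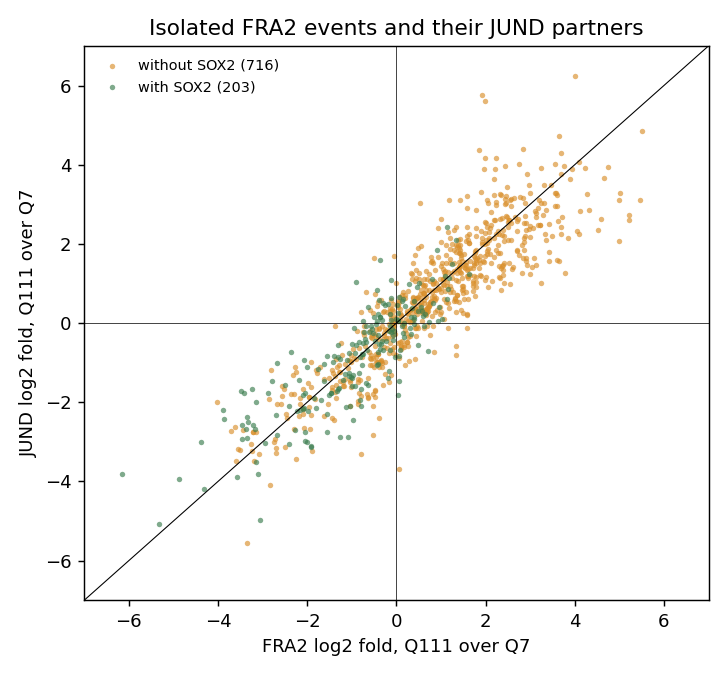
Log2 fold (Q111 over Q7) of FRA2 (horizontal) and of its nearest JUND event within 100 bp (vertical) at 919 isolated sites, 716 without (orange) and 203 with SOX2 (green), with the line of equal folds. Sites with SOX2, which was mapped in Q7 only, lie mostly below 0 for both proteins.

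The 5 members with the most FRA2 reads over both lines had both partners within 100 bp and were called in neither direction. Strong members in general were often called. In the highest of the 4 read groups, 31.4% of 344 members were higher in Q111 and 13.4% in Q7. At chromosome 11 position 17286912 Q7 gave 401 reads of FRA2 and Q111 gave 545, or 1.32 times as many after scaling (1.16 to 1.501). JUND 1 bp away had 181 and 213 reads, and SOX2 40 in Q7. At chromosome 8 position 24149095 there were 344.9 FRA2 reads in Q7 and 528.7 in Q111 (1.48-fold, 1.29 to 1.71), with 151 and 195 JUND reads. These 2 sites were higher in Q111 by small folds, and the other 3 were higher in Q7. The event at chromosome 4 position 28351686, with nothing for 247559 bp, had 454 and 334 FRA2 reads and 135 and 104 JUND reads. Chromosome 3 position 159323873 had 422 and 349 FRA2 reads, and chromosome 17 position 93779513 had 449 and 278, a 1.67-fold difference (1.43 to 1.94). At these 5 sites intervals of the FRA2 fold excluded 1 and lay within the 2-fold limit. Of the 5 members with the most JUND reads, 4 are among these. The fifth, chromosome 16 position 29814271, had 121.9 JUND reads in Q7 and 133.9 in Q111, with 204 and 156 FRA2 reads.

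SOX2 was strongest at chromosome 5 position 63998919, with 157 reads in Q7, where reads of FRA2 were 243 and 60 and those of JUND 108 and 14. That 4.16-fold FRA2 difference (3.14 to 5.64) was called. At chromosome 15 position 71026481 (137 SOX2 reads) FRA2 had 58 and 6 reads and JUND 36 and 6, also called higher in Q7. At chromosome 16 position 77099730 (141 SOX2 reads) JUND had 62 and 55 reads and FRA2 was higher in Q7 by 1.43-fold (1.06 to 1.93), which is below the limit. At chromosome 2 position 54420194 (135 SOX2 reads) FRA2 had 226.9 and 327.9 reads and was not called. The fifth was the site on chromosome 5 with 132 SOX2 reads described above. Of these 5 sites, 3 were thus called higher in Q7 for both FRA2 and JUND, and 2 for neither.

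The 5 most remote events were weak and had neither partner listed. Of all 337 members beyond 200000 bp, 32.9% had JUND and 10.7% had SOX2, against 36.9% and 10.2% of all members. At chromosome X position 114884096, with no event for 3884261 bp, 2 reads of FRA2 in Q7 stood against 37 in Q111, 14.5 times as many (4.62 to 153.5; adjusted p = 4.56e-08 by the exact binomial test). At chromosome 8 position 100927105, 2514704 bp from its nearest event, there were 18 and 46 reads (2.43-fold, 1.41 to 4.54). Chromosome 16 position 82446522 had 8 and 22 reads (adjusted p = 0.0381 by the exact test), and chromosome 4 position 37926136 had 10 and 39. These 4 were called higher in Q111. The fifth, chromosome 1 position 48938420, had 29 reads in each line and control reads of 25.2 in Q7 and 9.3 in Q111. Its log2 fold of -0.05 became 2.23 when control reads were subtracted. Whether gaps in the assembly lie around these events was not checked.

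Isolated events were found on 20 chromosomes. Their share of the FRA2 events was highest on chromosome X, at 167 of 1241 (13.5%), followed by chromosome 14 (6.75%) and chromosome 12 (6.15%), and lowest on chromosomes 15 (1.82%) and 19 (1.83%). More members were called higher in Q111 than in Q7 on all 20, and on all 20 the median log2 fold of members was above that of the other FRA2 events of that chromosome. It was largest on chromosome 10, at 1.47 against -0.09, with 90 of 152 members (59.2%) higher in Q111 and 19 higher in Q7. Chromosome 2 followed with 1.19 against 0.13. It was smallest on chromosome 9, at 0.12 against -0.22, where 37 of 128 members were higher in Q111 and 33 in Q7. On chromosome 17, where the other FRA2 events had a median of -0.49, members had 0.65. Without chromosome X, 69.8% of calls were towards Q111.

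**Figure D5:**
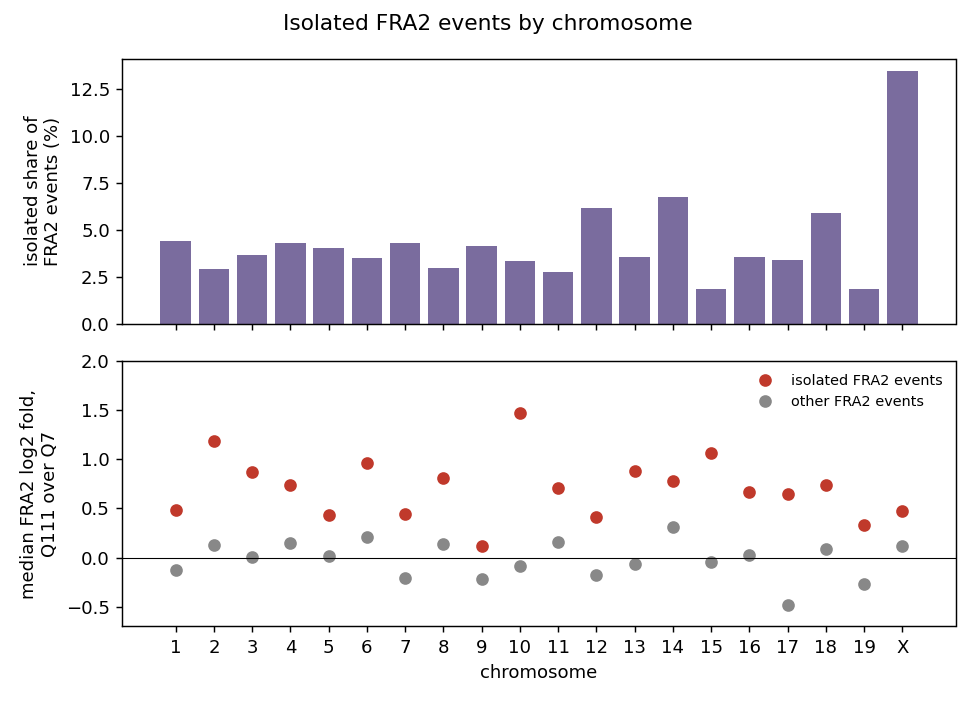
Top, share of the FRA2 events of each chromosome that were isolated, in percent. Bottom, median FRA2 log2 fold (Q111 over Q7) of isolated (red) and other FRA2 events (grey) by chromosome: the red point is above the grey on all 20, from 0.12 on chromosome 9 to 1.47 on chromosome 10.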

How the data were processed

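Each FRA2, JUND and SOX2 sample is 1 library pooled from replicates, per the labels. Per the submitters' processing notes reads were aligned with Bowtie 0.12.7 to mm9. The deposited tables carry the name of the GPS event caller. Its version is not given in the sources used here. IP columns hold expected counts of reads per event as deposited, rounded for the tests. Deposited control columns hold a scaled signal, deposited Fold is the ratio of IP to control, and deposited −log10 p-value and q-value columns complete the tables. There were 10 further value columns not used here.

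Isolation was computed from positions (Python 3.11.15, scipy 1.17.1). Read shares were tested against the median log2 ratio over events present in both lines (0.046 for FRA2, 0.072 for JUND), with the smaller exact binomial tail doubled, over all 64579 FRA2 or 46583 JUND events, all of which had at least 20 reads. Folds use a pseudocount of 0.5 reads. Intervals are 95%. Those of folds (Clopper-Pearson) cover the counting of reads only, and are too narrow where PCR copies were counted as separate molecules. Those of shares (Wilson) take events as independent draws, which events next to each other may not be. Neither kind covers the spread between cultures. Tests compare pooled libraries, not genotypes. The calculation was tested on simulated reads that had counting noise only and few changed events. That checks the code and not the error rate of calls in these data. The members, lists and tests were chosen with earlier results of these data known. Named events are, by rule, the 10 per direction with intervals farthest from 1, the 5 with the most FRA2 reads, the 5 with the largest distance, the 5 each with the most JUND and SOX2 reads, and 3 on each side of the limit. Sequence and gene annotation of mm9 were not used here, so no motif or gene is given. Alternatives changed scaling, control subtraction, limits, assumed spread, isolation radius and partner distance.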

Additional observations from a re-analysis of the deposited data

How the results depend on the processing

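No paired analysis was possible because each group is 1 pooled library, and for the same reason no replicate could be left out. Scaling by total reads, no scaling, a fold limit of 1.5 and an adjusted p limit of 0.01 left the shares within 1.5 times of those reported. Counting only neighbours present in Q111 turned the FRA2 balance, and scaling by control reads turned the JUND balance; the cause was not tested.

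With control scaling, 58.0% of FRA2 calls were towards Q111 (median log2 fold 0.34). For JUND 19.8% were higher in Q111 and 33.0% in Q7, 37.5% of calls were towards Q111 and the median was -0.27. Subtracting control gave medians of 0.84 (FRA2) and 0.56 (JUND), and a read minimum of 40 gave 0.45 and 0.26. A fold limit of 4 left 21.9% and 8.55% of FRA2 events higher in Q111 and Q7, and 18.2% and 9.79% of JUND partners (all events 9.76% and 7.99%, and 7.42% and 8.8%). An assumed dispersion of 0.05 left 27.6% and 11.4%, and 20.3% and 11.2% (all events 14% and 12.2%, and 9.16% and 12%). With a −log10 q of at least 5 the FRA2 median was 0.83, with JUND at 49.9% and SOX2 at 13.1%.

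A radius of 25000 bp gave 66.7% of calls towards Q111, medians of 0.51 (FRA2) and 0.28 (JUND, 0.285), JUND at 41.3%, SOX2 at 11.9%, presence in both lines at 34.6% and in Q111 alone at 41.3% (41.341), and a median of 24 reads in Q7. A radius of 100000 bp gave 74.0% (FRA2) and 69.1% (JUND) towards Q111, medians of 1.01 and 0.79, JUND at 34.3%, SOX2 at 9.003%, presence in both lines at 26.8%, in Q7 alone at 20.7% and in Q111 alone at 52.5%, and 19 reads in Q7. Isolation by FRA2 alone gave 65.4% and a median of 0.51 (0.505). A partner distance of 50 bp gave JUND at 34.8% and SOX2 at 7.18%.

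Chosen after seeing the data were the following. Neighbours present in Q7, with SOX2, gave 11.4% higher in Q7, 83.0% of calls towards Q111 and a median of 1.34, and without SOX2 81.0% and 1.20. Neighbours present in Q111 gave 26.6% higher in Q111, 32.6% higher in Q7, 45.0% of calls towards Q111 and a median of -0.18. Isolation by FRA2 and JUND gave 66.8% and 0.59, members without SOX2 75.3% and 0.97, and members present in both lines 17.1% and 10.5%, 61.9% of calls and 0.17. JUND partners present in both lines gave 6.8% and 5.6% higher in Q111 and Q7, 54.8% of calls and 0.12. Leaving out chromosome X gave 69.8%.

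Of 41 named events, only chromosome 1 position 48938420 changed sign, its log2 fold turning to 2.23 with control subtracted. Calls changed at more of them. With control scaling 4 lost and 2 gained a call. An assumed dispersion of 0.05 took the call from 4, an adjusted p limit of 0.01 from 3 and a fold limit of 4 from 5. At weak sites a few reads decide a call, and without replicates the spread between cultures is unknown.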

Other observations

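Isolated events that followed each other along a chromosome, with no FRA2 event between them, formed 865 pairs at a median spacing of 161599 bp. Both members were called at 370 pairs, in the same direction at 277 (74.9%): 222 pairs were both higher in Q111 and 55 both higher in Q7, while 93 were opposite. Among consecutive FRA2 events in general, the direction was the same at 77.7% of 14994 pairs with both called. Of all calls, 69.7% at isolated events and 52.2% over all FRA2 events were towards Q111. The shares of agreement thus start from different levels and cannot be compared directly.

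Of the isolated events, 98.4% had whole read numbers in both lines, against 77.2% of other FRA2 events. The read numbers are expected counts and the rule bars other FRA2 events nearby, so this contrast may not be independent of the rule. JUND had a second event within 100 bp at 1 member, chromosome 14 position 19772694. FRA2 reads there were 126 in Q7, 131 in Q111. The JUND event 48 bp away had 23.9 and 34.7 reads, and that 85 bp away had 31.1 and 21.3.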
